A study of Mus with 9 samples.

Results

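The genes of the major histocompatibility complex (MHC) and of antigen presentation were examined in the kidneys of aged mice. They were chosen by name alone, as every protein-coding gene whose symbol starts with H2- and, beside these, B2m, Tap1, Tap2, Tapbp, Psmb8, Psmb9, Psmb10, Ciita, Cd74 and Nlrc5. This rule took 44 of the 54532 genes in the table, 34 of them H2 genes. By their roles, 32 belong to the class I pathway and 11 to the class II pathway, and H2-Ke6 codes for an enzyme and for no MHC chain. Another 11 H2 symbols are listed as pseudogenes or under another biotype and were not taken.

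Kidney RNA was sequenced from 9 male C57BL/6 mice in groups of 3 named 18 mo, 21 mo and 21 mo/O304, and each library is 1 mouse. All 9 mice had lost 1 kidney by unilateral nephrectomy at 18 months of age. The 18 mo mice were killed 1 week after that surgery, the 21 mo mice received saline intraperitoneally for 12 weeks, and the 21 mo/O304 mice received 10 mg/kg/day of O304, an activator of the energy-sensing kinase AMPK, by the same route for the same time. Age, time after surgery and injections therefore differ together between the 18 mo group and the others and cannot be told apart. The comparison of 21 mo with 18 mo asks what differs between these states, and that of 21 mo/O304 with 21 mo asks what differs with the drug.

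MHC class I molecules are made by nearly every cell. The proteasome cuts cytosolic proteins into peptides, TAP carries them into the endoplasmic reticulum, and tapasin (Tapbp) helps to load them onto a heavy chain bound to β2-microglobulin, which CD8 T cells and NK cells then inspect. MHC class II molecules are made mainly by dendritic cells, macrophages and B cells, where the invariant chain (Cd74) holds the groove until the peptide exchange factor H2-DM fits in a peptide for CD4 T cells. Nlrc5 and Ciita are the transactivators that drive transcription of class I and class II genes. Interferon gamma raises both sets and can also induce class II on tubular cells of the kidney.

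The libraries held 15636378 to 18396725 counts on genes, so that 1 count was worth 0.0458 to 0.0669 CPM (counts scaled to a common library size by TMM). Within a group, the lowest correlation of log2 CPM between libraries was 0.976 in 18 mo, 0.972 in 21 mo/O304 and 0.881 in 21 mo. The 21 mo libraries differed among themselves in their cell markers. Summed over 6 proximal tubule markers, which define the bulk of the kidney cortex, 21 mo ran from 1365 to 9986 CPM, against 9647 to 12093 in 18 mo and 9907 to 11008 in 21 mo/O304. Summed over 10 macrophage markers, 21 mo ran from 792 to 3766 CPM, against 313 to 528 in 18 mo and 594 to 639 in 21 mo/O304. The 21 mo replicate 3 held both extremes, and no marker of either list was at 0 in any library. The summed levels of the 4 markers of other tubule segments (3394 to 7954 CPM in 18 mo, 3034 to 6784 in 21 mo and 2558 to 4406 in 21 mo/O304), of the 5 of endothelium (181 to 292, 163 to 238 and 213 to 395) and of the 3 of NK cells (0.805 to 1.75, 0.682 to 3.55 and 1.10 to 2.16) overlapped between 18 mo and 21 mo. The levels of every member below are those of whole tissue, in which fewer cells of a type and less RNA per cell cannot be told apart.

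Of the 44 genes, 31 passed edgeR's filter on low counts, 20 of class I and all 11 of class II. The 13 others were H2-Ke6, H2-Q1, H2-T3, H2-M1, H2-M5, H2-M9, H2-M11 and H2-M10.1 to H2-M10.6, several of which are known from the vomeronasal organ or the gut. Among these, 7 were listed at 0 in all 9 libraries and H2-Ke6 was the highest, with at most 10 counts in a library. A gene at low counts could pass the filter through 1 group where it was high, so that counts over the 31 describe the genes tested and not all 44. On chromosome 17 lie 39 of the 44, between 33915899 and 37483552 in the coordinates of the table (GRCm38, mm10), the MHC region of the mouse. B2m lies on chromosome 2, from 122147686 to 122153083, Nlrc5 and Psmb10 on chromosome 8, Ciita on chromosome 16 and Cd74 on chromosome 18.

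Both pathways were well represented in the kidney. Per length, the highest level in the 18 mo group belonged to Cd74, at 326 ± 73.0 FPKM (mean ± SD, n = 3), followed by B2m at 321 ± 58.8 FPKM, and the spreads of these levels overlap. The β chain gene H2-Eb1 stood at 235 ± 28.4 FPKM, although C57BL/6 mice are known to lack the α chain that it pairs with. The classical class I heavy chains, which present peptides to CD8 T cells, were at 147 ± 11.6 FPKM for H2-D1 and 132 ± 16.2 FPKM for H2-K1. The chains of the I-A molecule, the class II molecule of this strain, were at 156 ± 23.1 FPKM for H2-Ab1 and 119 ± 21.2 FPKM for H2-Aa. The levels of H2-Ab1, H2-D1, H2-K1 and H2-Aa thus lay close to each other. The loading genes were lower, with a mean over all 9 libraries of 32.4 FPKM for Tapbp and 4.10 FPKM for Tap1, and the transactivators were lower still, at 1.36 FPKM for Ciita and 0.805 FPKM for Nlrc5.

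Compared with 18 mo, most members of both classes had higher levels in 21 mo, but none passed the adjusted threshold. In class I, 18 of 20 genes tested had a positive log2 fold change, with a median of 0.49. In class II, 9 of 11 did, with a median of 0.61, while the median over all 15902 genes tested was 0.03. The edgeR quasi-likelihood test with Benjamini-Hochberg adjustment called 0 members at an adjusted p under 0.05, and called 0.0189% of all genes tested, 3 in number. The smallest adjusted p of a member was 0.0626, for B2m and for H2-DMb2. At an unadjusted p under 0.05, 9 class I genes were higher and 1 was lower, and 7 class II genes were higher and 0 lower, where 14.0% of all genes tested were higher and 12% lower. In 5 class I and 7 class II genes every 21 mo library lay above every 18 mo library, which held for 13.5% of all genes tested, and in H2-T22 every one lay below, which held for 15.3%.

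**Figure D1:**
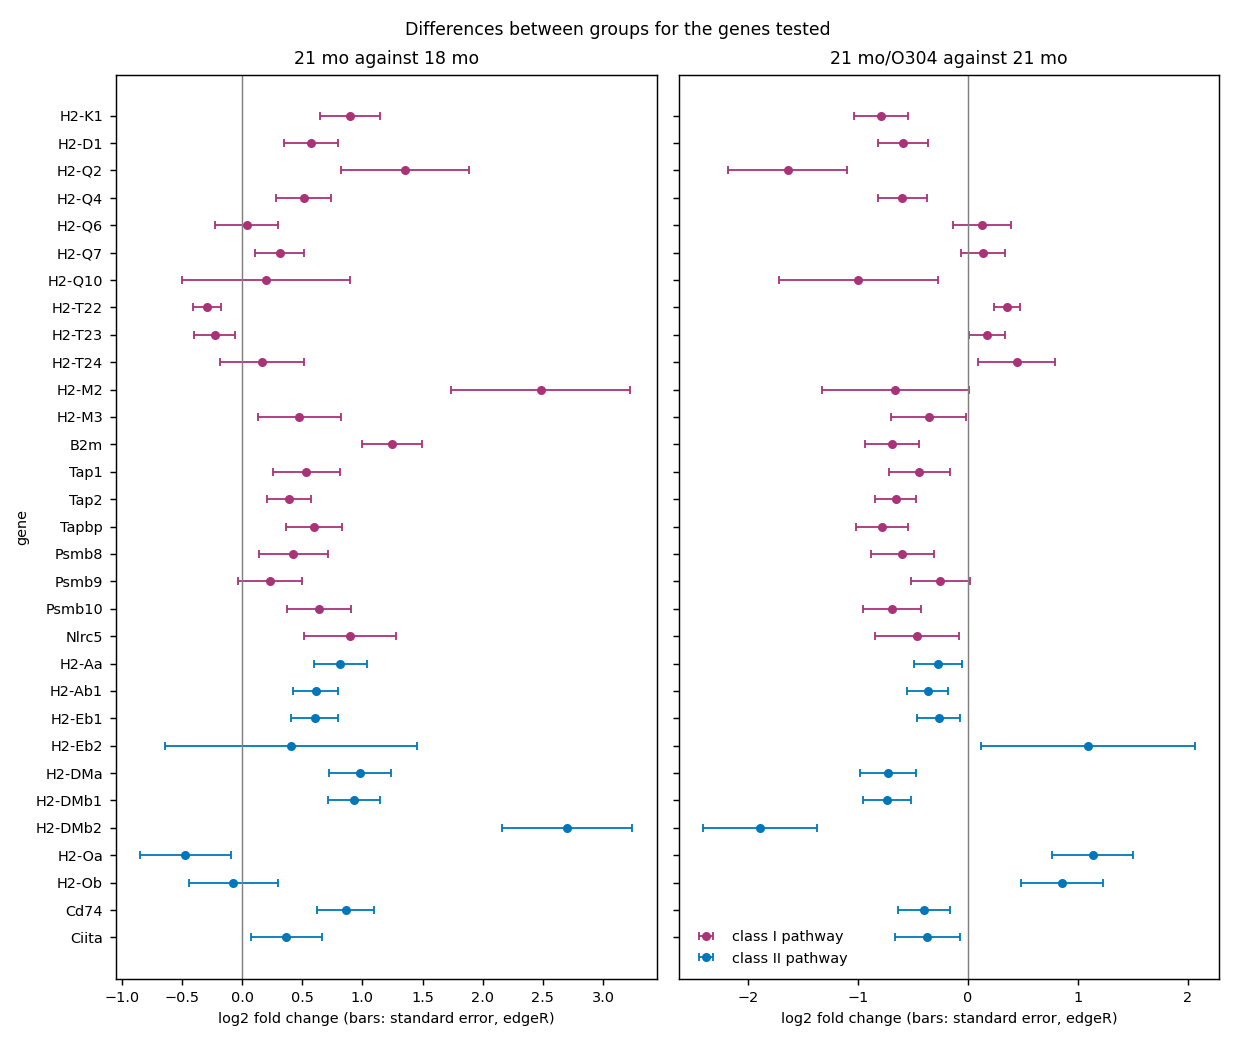
Log2 fold changes of the 31 genes tested (x axis) in the comparisons of 21 mo with 18 mo (left) and of 21 mo/O304 with 21 mo (right), with bars for the standard error from edgeR and colours for the class I and class II pathways. Of the class I genes 18 of 20 lie right of 0 in the left panel and 15 of 20 left of 0 in the right panel, and both comparisons use the same 21 mo libraries.

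Among the class I genes, the light chain had the smallest adjusted p between 21 mo and 18 mo. B2m, which codes for β2-microglobulin and is shared by all class I molecules, stood at 252, 257 and 344 CPM in 18 mo and at 522, 782 and 717 CPM in 21 mo. Every 21 mo library, replicate 1 included, lay above every 18 mo library, and the fold was 2.37 (log2 1.24, SE 0.25, adjusted p 0.0626). The heavy chain gene H2-K1 was at 372, 303.8 and 392 CPM in 18 mo and at 458, 739 and 791 CPM in 21 mo, without overlap, with a log2 fold change of 0.90 (adjusted p 0.0849, SE 0.25). H2-D1 was at 395, 355 and 421 CPM in 18 mo and at 426, 589.7 and 729.6 CPM in 21 mo. Here the lowest 21 mo library lay just above the highest 18 mo library, and the log2 fold change was 0.58 (adjusted p 0.153, SE 0.23). Nlrc5, the class I transactivator, was at 3.59, 4.93 and 6.56 CPM and at 6.89, 8.52 and 12.6 CPM, again without overlap, with a log2 fold change of 0.90 (adjusted p 0.181, SE 0.38).

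The genes that supply and load class I peptides showed another arrangement, in which 21 mo replicate 1 lay within or below the 18 mo range. Tapbp, the loading factor tapasin, was at 94.6, 93.8 and 105 CPM in 18 mo and at 90.0, 167 and 185 CPM in 21 mo, so that replicate 1 was below all 18 mo libraries and the other two were above them. Its log2 fold change was 0.59 (adjusted p 0.154, SE 0.23). The TAP transporter subunits were alike, with Tap1 at 16.2, 19.2 and 24.04 CPM in 18 mo and 18.6, 32.8 and 34.5 CPM in 21 mo. Tap2 was at 19.0, 21.1 and 22.1 CPM and 20.7, 33.7 and 27.2 CPM. In both, replicate 1 of 21 mo overlapped the 18 mo range, and the log2 fold changes were 0.53 (SE 0.28) and 0.39 (SE 0.18). Tap1 and Psmb9 overlap each other on opposite strands in the table, and Tapbp and Tap2 overlap other annotated genes, so reads in the shared stretches could not be assigned with certainty.

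The immunoproteasome subunits replace their constitutive counterparts and change which peptides are cut. Psmb10 was at 26.0, 24.1 and 25.4 CPM in 18 mo and at 23.2, 42.0 and 52.3 CPM in 21 mo, with a log2 fold change of 0.64 (adjusted p 0.171, SE 0.26). Psmb8 was at 22.2, 18.5 and 27.0 CPM and at 21.9, 26.1 and 43.0 CPM, with a log2 fold change of 0.43 (SE 0.29). Psmb9 was at 13.6, 12.8 and 17.8 CPM and at 15.5, 16.4 and 19.97 CPM, with a log2 fold change of 0.23 (SE 0.27). The groups overlapped in all 3 genes, and the difference of Psmb9 was smaller than its standard error.

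The other heavy chains did not share 1 direction. H2-M2 had the largest log2 fold change of class I, 2.48 (adjusted p 0.0954, SE 0.75), from 0.0619, 0.185 and 0.566 CPM in 18 mo to 1.81, 1.82 and 1.10 CPM in 21 mo without overlap, but the 18 mo libraries held only 1, 3 and 10 counts of it. H2-T22, whose product is seen by some γδ T cells, was lower in 21 mo, at 104, 115 and 112 CPM in 18 mo and 97.9, 86.8 and 84.7 CPM in 21 mo, with a log2 fold change of -0.29 (adjusted p 0.159, SE 0.12). H2-T23 codes for Qa-1, which is read by the CD94/NKG2A receptor of NK cells, and was at 142, 129 and 136 CPM and 142, 116 and 89.1 CPM, with a log2 fold change of -0.23 (SE 0.17). Both T genes are overlapped by an antisense transcript in the table. H2-Q4 and H2-Q2 had log2 fold changes of 0.51 (SE 0.23) and 1.35 (SE 0.53), and the 5 remaining heavy chains tested, H2-Q6, H2-Q7, H2-Q10, H2-T24 and H2-M3, lay between 0.04 and 0.48 with overlapping groups. H2 heavy chains share near-identical stretches of sequence, and how reads matching several of them were counted is not stated, so the split of reads among them is uncertain.

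**Figure D2:**
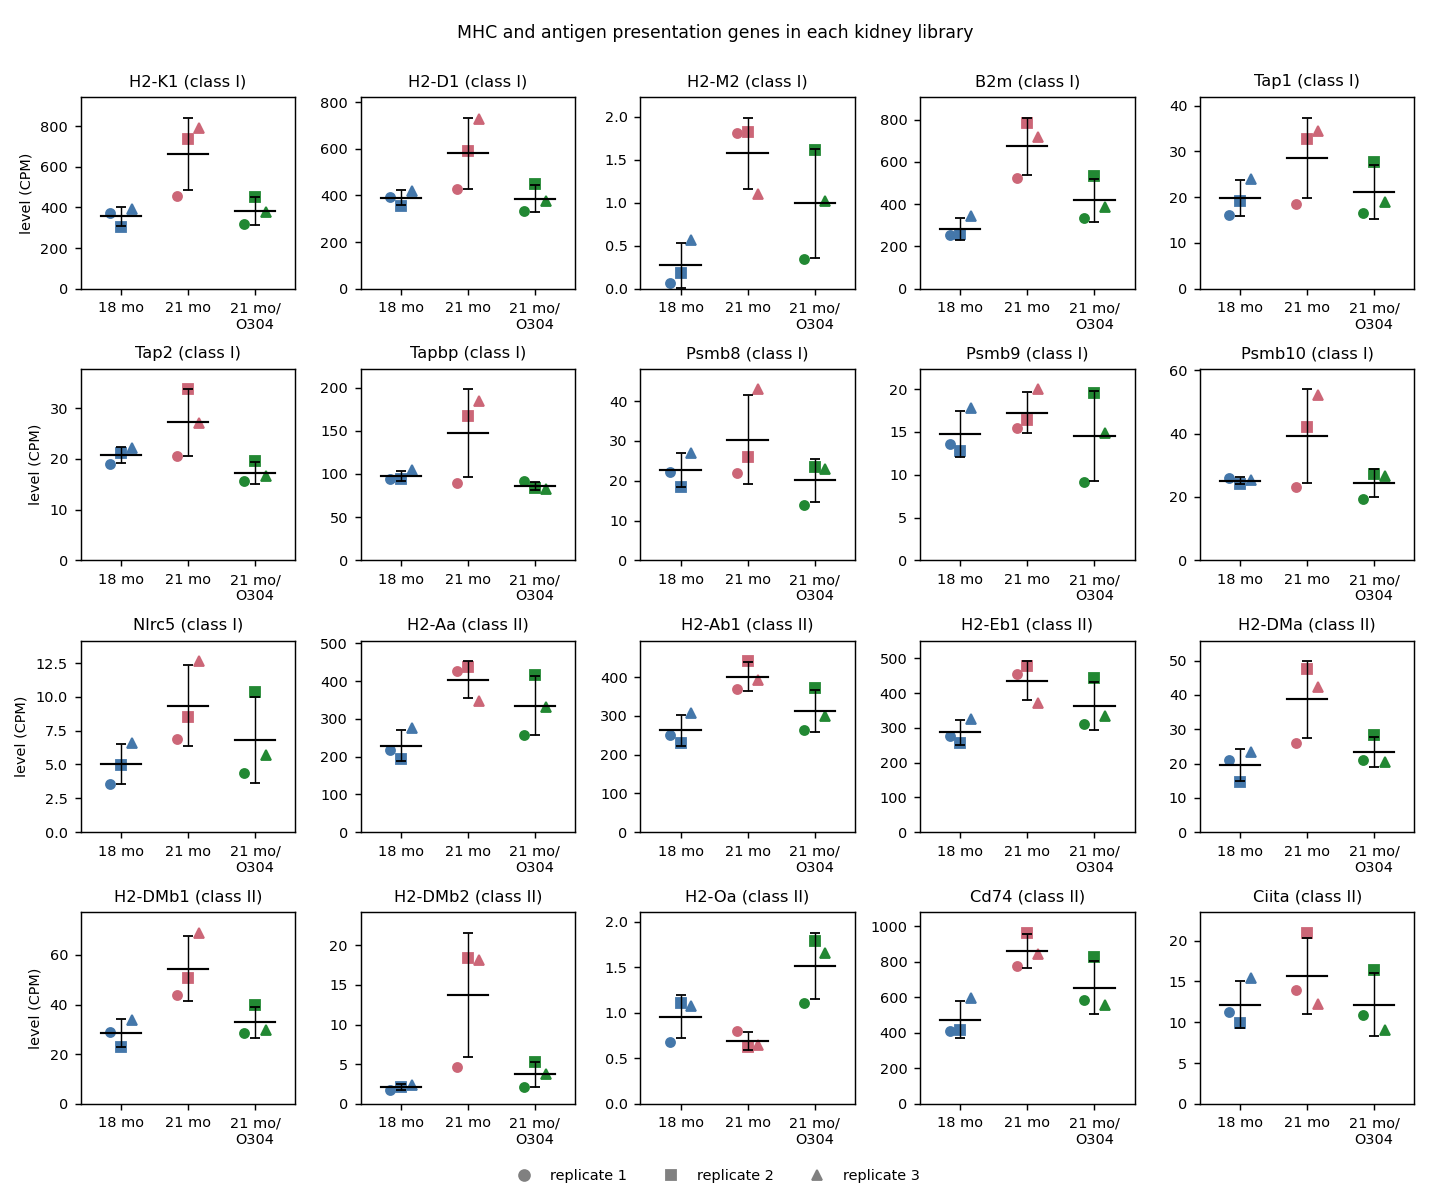
Levels (y axis, TMM-normalized CPM from 0) of 20 genes in each of the 9 libraries, by group (x axis), with a shape for the replicate number, a line for the mean and bars for the SD (n = 3). B2m, H2-Aa and Cd74 show every 21 mo library above every 18 mo library, whereas in Tapbp and Psmb10 the 21 mo replicate 1 lies below the 18 mo libraries.

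In class II, the 21 mo libraries were close to each other in the chains themselves. H2-Aa was at 218, 195 and 275 CPM in 18 mo and at 425, 438 and 348 CPM in 21 mo, with a log2 fold change of 0.82 (adjusted p 0.0834, SE 0.22). H2-Ab1 was at 251, 231 and 307 CPM and at 369, 441 and 393 CPM, with a log2 fold change of 0.61 (adjusted p 0.0977, SE 0.19). H2-Eb1 was at 277, 257 and 326 CPM and at 456, 479 and 372 CPM, with a log2 fold change of 0.60 (adjusted p 0.106, SE 0.19). In all 3 chains the groups did not overlap, and 21 mo replicate 3 was the lowest 21 mo library of H2-Aa and H2-Eb1. H2-Eb2 held at most 22 counts in a library and had overlapping groups. Cd74, the invariant chain, was at 409, 417 and 596 CPM in 18 mo and at 773, 962 and 844 CPM in 21 mo, without overlap, with a fold of 1.81 (log2 0.86, SE 0.24, adjusted p 0.0849).

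The peptide exchange genes held both the largest and the lowest log2 fold changes of class II. The H2-DM subunits, which free the groove of the invariant chain fragment, were higher in 21 mo without overlap. H2-DMa was at 21.1, 14.5 and 23.2 CPM in 18 mo and 26.1, 47.5 and 42.5 CPM in 21 mo, with a log2 fold change of 0.98 (adjusted p 0.0810, SE 0.26). H2-DMb1 was at 29.0, 22.9 and 33.9 CPM and 43.9, 50.7 and 68.9 CPM, with 0.93 (adjusted p 0.0700, SE 0.22). H2-DMb2 was at 1.73, 2.16 and 2.43 CPM and 4.68, 18.4 and 18.2 CPM, with 2.70 (adjusted p 0.0626, SE 0.54). H2-DMb1 and H2-DMb2 are close copies, yet in 21 mo replicates 2 and 3 the level of H2-DMb2 was several times that of replicate 1, which was not so for H2-DMb1. The H2-O subunits, which restrain H2-DM in B cells and some dendritic cells, were not higher, with H2-Oa at 0.681, 1.11 and 1.07 CPM in 18 mo and 0.803, 0.625 and 0.641 CPM in 21 mo. Their log2 fold changes were -0.47 (SE 0.38) for H2-Oa and -0.07 (SE 0.37) for H2-Ob. Ciita, the class II transactivator, was at 11.2, 9.86 and 15.4 CPM and 14.0, 21.0 and 12.2 CPM with overlap, and its log2 fold change was 0.37 (adjusted p 0.441, SE 0.29).

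The classes differed in how the 21 mo mice spread. Averaged over the genes tested, on the scale of log2(CPM + 0.1) and relative to the 18 mo mean, class I stood at -0.05, -0.21 and 0.25 in the 18 mo libraries and at 0.30, 0.67 and 0.67 in the 21 mo libraries. Class II stood at -0.25, -0.11 and 0.36 in 18 mo and at 0.62, 0.72 and 0.73 in 21 mo. Replicate 1 of 21 mo was thus close to the other 21 mo libraries in class II and below them in class I. Within class I, the 12 heavy chains stood at 0.41, 0.64 and 0.51 in 21 mo replicates 1, 2 and 3. The 7 class I genes other than these and B2m stood at 0.03, 0.59 and 0.85. Counted by gene, 21 mo replicate 1 exceeded every 18 mo library in 8 of 11 class II genes (72.7%) and in 8 of 20 class I genes (40.0%), while this held for 31.1% of all genes tested in that library. Replicate 2 did so in 8 of 11 and 11 of 20 genes, against 37.3% of all genes, and replicate 3 in 7 of 11 and 15 of 20, against 41.3%. The difference between the classes is a description of genes sharing libraries and was not tested.

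**Figure D3:**
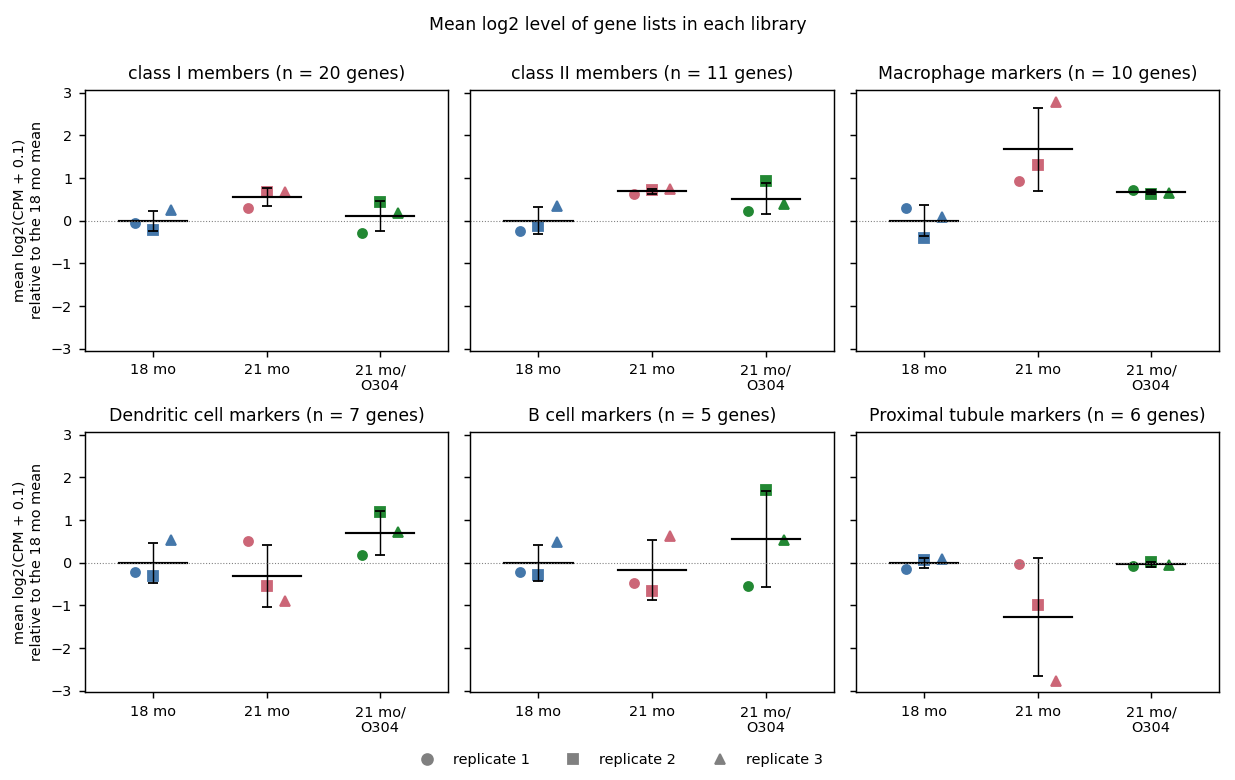
Mean log2(CPM + 0.1) relative to the 18 mo mean (y axis) of the class I and class II genes tested and of 4 lists of cell type markers, in each library by group (x axis), with a line for the group mean and bars for the SD (n = 3). The 21 mo libraries lie at 0.62 to 0.73 in class II and at 0.30 to 0.67 in class I, while their macrophage markers run from 0.93 to 2.78 and their proximal tubule markers from -0.04 to -2.76.

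Markers of antigen-presenting cells moved with these levels in part. Of the 10 macrophage markers, 10 had a positive log2 fold change in 21 mo against 18 mo, 9 of them with an unadjusted p under 0.05 by edgeR and 0 with an adjusted one, and the median was 1.67. At that unadjusted p, 14.0% of all genes tested were higher. The macrophage mean on the log2 scale was 0.93, 1.30 and 2.78 in 21 mo replicates 1, 2 and 3. In the same libraries the class II mean was 0.62, 0.72 and 0.73 and the class I mean 0.30, 0.67 and 0.67. The 7 class I genes other than B2m and the heavy chains stood at 0.03, 0.59 and 0.85. Of the 7 dendritic cell markers, 2 had a positive log2 fold change, with summed levels of 17.7 to 31.7 CPM in 18 mo and 19.9 to 28.6 CPM in 21 mo. The 5 B cell markers summed to 3.76 to 6.28 CPM in 18 mo and 4.15 to 15.1 CPM in 21 mo, and Pax5 was at 0 in 3 of the 9 libraries. The 5 T cell markers summed to 6.41 to 10.2 CPM and 8.24 to 21.3 CPM. The part of these cells in the levels of the members was not tested. Without 21 mo replicate 3, 3 class I and 7 class II genes were higher at an unadjusted p under 0.05, where 10% of all genes tested were higher in that fit.

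The class I count depended on single libraries, and the share of all genes changed too but did not always follow it. The 9 class I genes higher at an unadjusted p under 0.05 became B2m, H2-K1 and H2-M2 without 18 mo replicate 1 (11.4% of all genes tested higher), 18 mo replicate 2 (8.52%), 21 mo replicate 2 (11%) or 21 mo replicate 3. They became 11 without 21 mo replicate 1 (21.4%) and 7 without 18 mo replicate 3 (11.3%). Where at least 10 counts in every library were required, which H2-M2 did not meet, they were 8 (14.9%). The class II count was 6 or 7 in each of the 9 fits that left out 1 library, and its median log2 fold change of 0.61 became 0.99 without 18 mo replicate 3. The difference between the classes in this was not tested. Without 21 mo replicate 1, edgeR called 9 class I and 6 class II genes higher and 0 lower at an adjusted p under 0.05, where 13.6% of all genes tested were called higher and 11.9% lower. DESeq2 called on all 9 libraries B2m, H2-K1 and H2-M2 of class I and 7 class II genes higher (4.04% of all genes). On the 6 libraries compared it called the same 3 and 6 class II genes (2.35%). DESeq2 made more false calls than its threshold allows on counts simulated with the same spread in all groups. Such counts cannot rank the tools on these uneven libraries. With every gene of at least 1 count, edgeR called B2m and the 3 H2-DM genes (1.43%). By limma voom with quality weights, 11 class I and 8 class II genes were called higher and 2 class I genes lower, where 26.3% of all genes were called higher and 26.6% lower.

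Compared with 21 mo, the 21 mo/O304 libraries had lower levels of most members, again without a call. In class I, 15 of 20 genes tested had a negative log2 fold change, with a median of -0.59, and in class II 8 of 11, with a median of -0.36, beside -0.02 over all genes tested. The edgeR test called 0 members and 0% of all genes at an adjusted p under 0.05, and the smallest adjusted p of a member was 0.175. At an unadjusted p under 0.05, 8 class I genes were lower and 1 was higher, and 3 class II genes were lower and 2 were higher, where 12.4% of all genes tested were lower and 8.27% higher. The class I median was -0.33 without 21 mo replicate 3 and -0.36 without 21 mo/O304 replicate 1, and the class II median was -0.20 without 21 mo replicate 2. Without 21 mo replicate 3 the class II median, -0.37, was below that of class I. The groups did not overlap in H2-K1, Tap2 and H2-DMb1, which were lower (10.5% of all genes), and in H2-T22 and H2-Oa, which were higher (10.8%). This comparison shares the 21 mo libraries with the comparison with 18 mo, so that a high 21 mo library enters both with opposite sign.

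The classical heavy chains and the loading genes were lower in 21 mo/O304. H2-K1 was at 317, 453 and 379 CPM, below every 21 mo library, with a log2 fold change of -0.79 (adjusted p 0.178, SE 0.25), a level 1.73-fold lower. H2-D1 was at 332, 448 and 378 CPM, with a log2 fold change of -0.59 (adjusted p 0.204, SE 0.23) and an overlap in replicate 2. B2m was at 336, 532 and 388 CPM, where replicate 2 reached into the 21 mo range, with -0.69 (adjusted p 0.193, SE 0.25). Tapbp was at 91.5, 83.7 and 82.6 CPM, the narrowest spread among these genes relative to the level. Its log2 fold change was -0.78 (adjusted p 0.176, SE 0.23), and the overlap came from 21 mo replicate 1. Tap2 was at 15.6, 19.6 and 16.6 CPM and did not overlap 21 mo, with -0.66 (adjusted p 0.175, SE 0.19). Tap1 was at 16.6, 27.8 and 18.8 CPM, with -0.44 (SE 0.28). Of these 6 genes, B2m had the largest log2 fold change of 21 mo/O304 against 18 mo, 0.56.

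Among the immunoproteasome subunits, Psmb10 was at 19.3, 27.2 and 26.5 CPM in 21 mo/O304, with a log2 fold change against 21 mo of -0.69 (adjusted p 0.206, SE 0.27). Psmb8 was at 14.0, 23.5 and 22.9 CPM, with -0.59 (SE 0.29), and Psmb9 at 9.13, 19.5 and 14.9 CPM, with -0.25 (SE 0.27). All 3 overlapped the 21 mo libraries, and 21 mo/O304 replicate 1 was the lowest library of its group in each. Nlrc5 was at 4.36, 10.4 and 5.67 CPM, with -0.46 (SE 0.38), and its replicate 2 lay within the 21 mo range. H2-M2 was at 0.349, 1.61 and 1.02 CPM, with -0.66 (SE 0.67). H2-T22 was the class I gene with the opposite sign and no overlap, at 105, 117 and 123 CPM, with a log2 fold change of 0.35 (adjusted p 0.182, SE 0.12).

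Class II genes differed in direction in the 21 mo/O304 libraries. The chains overlapped the 21 mo libraries, with H2-Aa at 258, 415 and 331 CPM and a log2 fold change of -0.27 (SE 0.22). H2-Ab1 was at 264, 371 and 300.4 CPM, with -0.36 (SE 0.19), and H2-Eb1 at 311, 442 and 335 CPM, with -0.27 (SE 0.19). H2-Eb2, a chain gene at low counts, had a positive log2 fold change of 1.09, and no chain had an unadjusted p under 0.05. Cd74 was at 582, 824 and 555 CPM, with -0.40 (adjusted p 0.346, SE 0.24), and Ciita at 10.9, 16.4 and 9.10 CPM, with -0.37 (SE 0.29). The class II genes with an unadjusted p under 0.05 were all genes of peptide exchange. Replicate 2 was the highest 21 mo/O304 library in H2-Aa, H2-Ab1, H2-Eb1, Cd74 and Ciita.

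The H2-DM and H2-O genes differed from 21 mo with opposite signs. H2-DMb2 was at 2.09, 5.30 and 3.76 CPM, with a log2 fold change of -1.89 (adjusted p 0.175, SE 0.52). H2-DMb1 was at 28.6, 39.8 and 29.9 CPM, with -0.73 (adjusted p 0.175, SE 0.22). H2-DMa was at 21.2, 28.4 and 20.6 CPM, with -0.73 (adjusted p 0.192, SE 0.26). Of these only H2-DMb1 was without overlap. H2-Oa was higher, at 1.10, 1.79 and 1.66 CPM, with 1.13 (adjusted p 0.182, SE 0.37), and H2-Ob was at 2.50, 5.36 and 3.25 CPM against 2.74, 1.82 and 1.60 CPM in 21 mo, with 0.85 (adjusted p 0.235, SE 0.37). The level of H2-Oa rests on at most 30 counts in a library and overlaps an antisense transcript. Beside this, the 7 dendritic cell markers summed to 23.3 to 44.0 CPM in 21 mo/O304, 6 of them with a positive log2 fold change against 21 mo, and the 5 B cell markers to 5.99 to 16.2 CPM. The macrophage markers were lower in 10 of 10, 7 of them with an unadjusted p under 0.05, where 12.4% of all genes tested were lower. The part of all these cells in the levels of H2-DM and H2-O was not tested.

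The 21 mo/O304 mice also differed among themselves. Relative to the 18 mo mean, class I stood at -0.27, 0.44 and 0.17 and class II at 0.24, 0.92 and 0.39 on the scale of mean log2(CPM + 0.1). Replicate 2 exceeded every 18 mo library in 13 of 20 class I genes and in 11 of 11 class II genes, against 32.3% of all genes tested. Replicate 1 did so in 0 of 20 and 2 of 11 and lay below every 18 mo library in 11 of 20 class I genes, against 30.4% of all genes tested. In replicate 2 the mean was 1.2 for the dendritic cell, 1.70 for the B cell, 1.55 for the T cell and 0.71 for the endothelium markers. Each of these was the highest of all 9 libraries, while the macrophage mean of replicate 2, 0.63, was near that of its group. The part of these cells in replicate 2 was not tested. Fat cell markers, 5 in number, summed to 9.60 to 135 CPM in 21 mo/O304, against 1.47 to 5.13 in 21 mo and 0.123 to 8.37 in 18 mo, and 4 of them were at 0 in at least 1 library.

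The counts of genes lower in 21 mo/O304 than in 21 mo depended on single libraries. The 8 class I genes lower at an unadjusted p under 0.05 became 4 without 21 mo replicate 2 (10.1% of all genes tested lower), 21 mo replicate 3 (6.95%) or 21 mo/O304 replicate 1 (9.88%) and 5 without 21 mo/O304 replicate 3 (8.10%). They became 10 without 21 mo replicate 1 (20.7%) or 21 mo/O304 replicate 2 (9.55%). H2-T22, the 1 higher class I gene, was not under this p without 21 mo/O304 replicate 3, and H2-T23 joined it without 21 mo replicate 1. The 3 lower class II genes became 5 without 21 mo/O304 replicate 2. They became 2 without 21 mo replicate 2, 21 mo/O304 replicate 1 or 21 mo/O304 replicate 3. Of the higher class II genes, H2-Oa and H2-Ob were both under this p without 21 mo replicate 1 or 21 mo/O304 replicate 1, neither was without 21 mo/O304 replicate 2, and in the 6 other fits H2-Oa was and H2-Ob was not. Without 21 mo replicate 1, edgeR called 8 class I and 3 class II genes lower and H2-T22 higher at an adjusted p under 0.05, where 12.6% of all genes tested were called lower and 10.6% higher. DESeq2 on 9 libraries called H2-K1 and H2-DMb2 lower (2.23% of all genes), and on the 6 libraries compared H2-DMb2 alone (1.32%). By limma voom with quality weights, 9 class I and 7 class II genes were called lower and 1 and 3 higher, where 19.8% of all genes were called lower and 21.2% higher.

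Between 21 mo/O304 and 18 mo, class I was split evenly in sign and class II was mostly positive. Class I had 10 genes with a positive and 10 with a negative log2 fold change, with a median of 0.02, and class II had 10 of 11 positive, with a median of 0.46, beside 0.00 over all genes tested. The edgeR test called 0 members and 0% of all genes. At an unadjusted p under 0.05, B2m (log2 fold change 0.56, SE 0.24), H2-M2 (1.82, SE 0.76) and H2-Aa (0.55, SE 0.22) were higher and no member was lower, where 4.33% of all genes tested were higher and 5.33% lower. The groups did not overlap in H2-Ob, which was higher (13.2% of all genes), and in Tapbp, which was lower (13.3%). Cd74 had a log2 fold change of 0.46 (SE 0.24), H2-DMb2 of 0.81 (SE 0.53), H2-K1 of 0.11 (SE 0.25) and Psmb10 of -0.05 (SE 0.27). The median of class I ran from -0.12 without 21 mo/O304 replicate 2 to 0.18 without 21 mo/O304 replicate 1, and 9 of 20 class I genes, H2-K1 and Psmb10 among them, turned in sign when 1 library was left out, as did 1 of 11 class II genes. The median of class II was 0.27 without 21 mo/O304 replicate 2 and 0.67 without 18 mo replicate 3. The unadjusted counts of 2 class I genes and 1 class II gene became 0 and 0 without 18 mo replicate 1 (2.50% of all genes tested higher), 18 mo replicate 2 (2.6%), 21 mo replicate 2 (3.87%), 21 mo/O304 replicate 2 (2.71%) or 21 mo/O304 replicate 3 (3.26%). Without 18 mo replicate 3 they became 2 and 3 (3.21%), without 21 mo replicate 1 2 and 2 (5.92%), and without 21 mo/O304 replicate 1 3 and 2 (3.66%). DESeq2 on the 6 libraries compared called B2m higher (1.37% of all genes).

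Ratios of FPKM within a library compared partners that do not depend on the scaling of libraries. Each immunoproteasome subunit was set against the constitutive subunit it replaces, and Cd74 against B2m as the partners shared by class II and class I molecules. The log2 ratio of Cd74 to B2m was -0.01, -0.02 and 0.08 in 18 mo and -0.15, -0.41 and -0.48 in 21 mo, so that every 21 mo library lay below every 18 mo library. The difference was -0.36 (p = 0.1 by a two-sided exact permutation test, which cannot give less with 3 libraries against 3). In 21 mo/O304 the ratio was 0.08, -0.08 and -0.20, which was 0.28 above 21 mo (exact permutation p = 0.2). B2m thus lay further above 18 mo than Cd74 did in each 21 mo library.

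The log2 ratio of Psmb9 to Psmb6 was -4.35, -4.52 and -3.85 in 18 mo and -3.76, -3.36 and -3.42 in 21 mo, higher by 0.73 without overlap (exact permutation p = 0.1). That of Psmb8 to Psmb5 was -4.24, -4.70 and -3.96 in 18 mo and -4.09, -3.50 and -2.74 in 21 mo, higher by 0.86 with overlap (exact permutation p = 0.2). That of Psmb10 to Psmb7 was -0.41, -0.72 and -0.62 in 18 mo and -0.69, 0.72 and 1.23 in 21 mo, so that replicates 2 and 3 had more Psmb10 than Psmb7 per length and replicate 1 did not (exact permutation p = 0.3). The constitutive subunits had lower levels in 21 mo and enter these ratios as denominators. Psmb6 was at 143, 149 and 131 CPM in 18 mo and 107, 85.8 and 109 CPM in 21 mo, without overlap, with a log2 fold change of -0.49 (adjusted p 0.0991 by edgeR, SE 0.15). The difference in Psmb9 to Psmb6 thus came more from Psmb6 than from Psmb9, whose own log2 fold change was 0.23. Psmb5 and Psmb7 had -0.47 (SE 0.18), without overlap, and -0.41 (SE 0.19), with overlap. In 21 mo/O304 the ratios were -4.64, -3.71 and -4.36 for Psmb8 to Psmb5, -4.48, -3.30 and -4.07 for Psmb9 to Psmb6 and -0.78, -0.32 and -0.64 for Psmb10 to Psmb7. All 3 overlapped 21 mo. Over the 12 comparisons of ratios no Benjamini-Hochberg adjusted value was under 0.48.

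**Figure D4:**
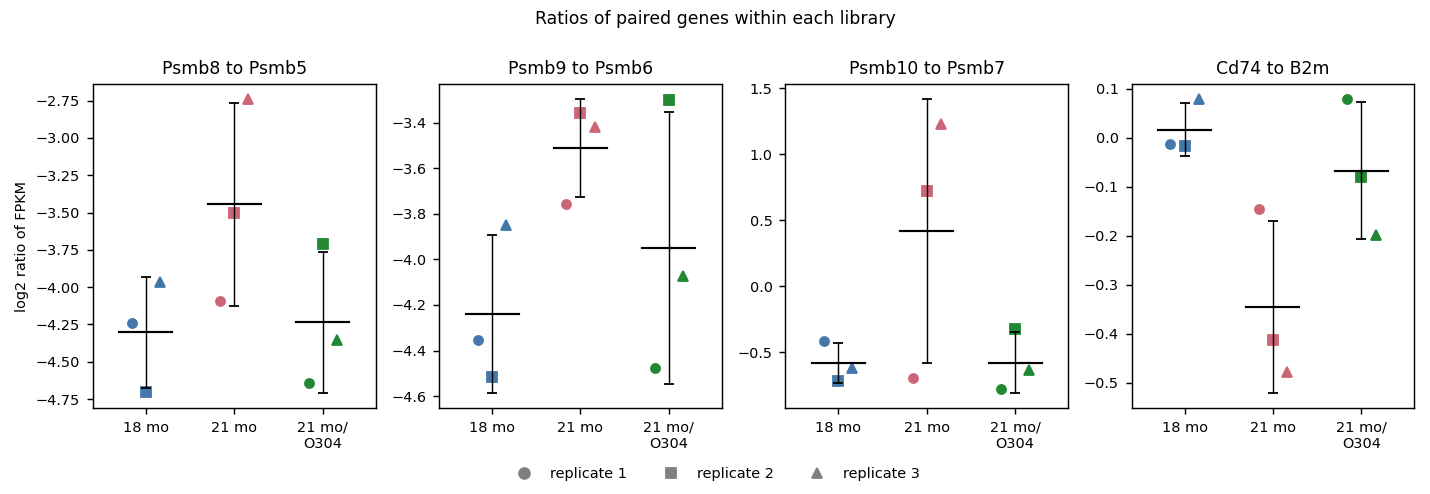
Log2 ratio of FPKM within each library (y axis, a scale of its own in each panel) for 4 pairs of genes, by group (x axis), with a shape for the replicate number, a line for the mean and bars for the SD (n = 3). The Cd74 to B2m ratio of every 21 mo library lies below those of 18 mo and the Psmb9 to Psmb6 ratio above them, where Psmb6 itself had a log2 fold change of -0.49, while Psmb10 to Psmb7 of 21 mo replicate 1 lies at -0.69, within the 18 mo range.

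Of 50 genes that work with these pathways, 49 were tested and 0 were called at an adjusted p under 0.05 in any comparison by edgeR. In 21 mo against 18 mo, 40 had a positive log2 fold change, 14 of them with an unadjusted p under 0.05. A negative one was found in 9, 4 of them with such a p. Over all genes tested, 14.0% were higher and 12% lower at this p, and 8387 of 15902 had a positive log2 fold change. By group, a positive sign was found in 9 of 12 genes of class I processing and loading, 5 of 5 of class II processing, 4 of 7 transcription factors of the MHC promoters, 8 of 8 of the interferon gamma route, 4 of 4 costimulatory genes, 4 of 6 class I like molecules and 6 of 7 receptors. Erap1, which trims peptides in the endoplasmic reticulum, had the smallest p, with a log2 fold change of 0.85 (adjusted p 0.0626, SE 0.15), and the proteasome activator Psme1 had 0.68 (SE 0.16). Ctss, the protease that cuts the invariant chain, had 2.28 (SE 0.49). Among the class I like molecules, Hfe of iron uptake had 0.54 (SE 0.10), Cd1d1, which presents lipids, 1.13 (SE 0.29) and Mr1, which presents vitamin metabolites, 1.22 (SE 0.35). The receptor gene Pirb had 2.08 (SE 0.58), the interferon gamma receptor chain Ifngr1 1.22 (SE 0.30) and the transcription factor Creb1 0.52 (SE 0.15). Ifng itself was not tested, with 0 to 4 counts in a library.

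In 21 mo/O304 against 21 mo, 33 of the 49 partners had a negative log2 fold change, 9 of them with an unadjusted p under 0.05, and 16 a positive one, 1 of them so. Of all genes tested, 12.4% were lower and 8.27% higher at this p. Erap1 was at -0.66 (SE 0.15), Psme1 at -0.68 (SE 0.16), Ctss at -1.56 (SE 0.48), Mr1 at -1.21 (SE 0.35) and Ifngr1 at -0.78 (SE 0.30) on the log2 scale. These are the same 21 mo libraries as in the comparison with 18 mo. Between 21 mo/O304 and 18 mo, 35 were positive and 14 negative, with 6 and 2 at an unadjusted p under 0.05, against 4.33% and 5.33% of all genes tested. The chaperone gene Pdia3, whose product joins tapasin in the loading complex, had a log2 fold change of 0.61 (SE 0.18) there.

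The neighbours of the members were counted in the same way. The chromosome 17 interval that spans the members holds 143 other protein-coding genes, of which 87 were tested. In 21 mo against 18 mo their median log2 fold change was -0.15, with 9 higher and 23 lower at an unadjusted p under 0.05. The 26 members tested in the interval had a median of 0.49, with 12 higher and 1 lower. At this p, 14.0% of all genes tested were higher and 12% lower in that comparison. In 21 mo/O304 against 21 mo the neighbours had a median of -0.05, with 8 higher and 15 lower, and the members -0.40, with 3 higher and 9 lower. Here 8.27% of all genes tested were higher and 12.4% lower. The edgeR test called 0 of the 87 neighbours in any comparison at an adjusted p under 0.05.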

How the data were processed

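RNA sequencing of 9 mouse kidneys was analysed from 1 deposited table of 54532 genes, 1 library per mouse. Per the study's methods and the submitters' processing notes, the authors filtered paired-end reads, aligned them with HISAT2 2.0.5 to GRCm38 (mm10) and counted them per gene with featureCounts 1.5.0-p3. Raw counts were deposited for each library, beside FPKM values that the authors derived from them by gene length and library size. Strand and the treatment of reads that match several genes are not given in the sources used here, so near-identical and overlapping genes are uncertain. The table also holds the authors' group means and their log2 fold changes and p-values from DESeq2 1.20.0, which were not used.

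Genes were kept by filterByExpr (minimum count 10, minimum total 15), which left 15902, and libraries were scaled by TMM. All 9 libraries entered 1 quasi-likelihood fit of edgeR 4.0.16 under R 4.3.3, with a mean per group and 6 residual degrees of freedom, and contrasts were tested two-sided with Benjamini-Hochberg adjustment over all genes tested and a threshold of 0.05. CPM values are TMM-normalized, and per-library means of lists used a pseudocount of 0.1 CPM. Ratios of FPKM were compared with the exact permutation test. Intervals from 3 mice per group are wide, and SEs are those of the fit.

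The members and lists were chosen with earlier results of these data known. Named were the 10 genes of the rule that are no H2 genes, H2-K1, H2-D1, H2-Aa, H2-Ab1, H2-Eb1, H2-DMa and H2-DMb1, and the 3 other members with the smallest p, H2-DMb2, H2-M2 and H2-Oa. Values of H2-T22, H2-T23, H2-Q4, H2-Q2 and H2-Ob were added after they were seen. Of 50 partner genes, the 10 with the smallest p were named, and Psmb5, Psmb6 and Psmb7 as denominators of the ratios. Markers of macrophages, dendritic cells, B cells, T cells, NK cells, endothelium, proximal and other tubule and fat cells were summed per library. The labels do not say whether replicate numbers pair the mice. The deviations of same-numbered libraries from their group means had correlations of -0.13 to 0.17, and 5 of 9 were over 0.1. Such correlations cannot show how the mice were handled.

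The alternatives were DESeq2 1.42.0 on 9 or on the 6 libraries compared, edgeR on those 6, upper-quartile scaling, every gene with at least 1 count, at least 10 counts in every library, the replicate number as a block, limma 3.58.1 (voom with quality weights, and limma-trend on log2(FPKM + 1) or log2(FPKM + 0.1), with and without a minimum mean FPKM of 0.5), and leaving out each library. The main tests were checked on simulated counts, where DESeq2 made more false calls than its threshold allows and edgeR, limma voom and limma-trend came close to theirs. The simulation gave all genes and groups the same spread, unlike the libraries here, so it cannot rank the tools on these data. Promoter motifs were not analysed here.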

Additional observations from a re-analysis of the deposited data

How the results depend on the processing

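Of the members, edgeR called 0 in every comparison, and other settings called more in the comparisons given here. For 21 mo against 18 mo, DESeq2 called 3 class I and 7 class II genes on 9 libraries and 3 and 6 on the 6 compared, edgeR on every gene with at least 1 count 1 and 3, and limma voom with quality weights 13 and 8. Leaving out 1 library in turn gave 0 to 9 class I and 0 to 6 class II genes, above 0 only without 21 mo replicate 1, and a class II median of 0.52 to 0.99, highest without 18 mo replicate 3. For 21 mo/O304 against 21 mo, DESeq2 on 9 libraries called 1 and 1 (3.18%) and on the 6 compared 0 and 1 (1.74%). By limma voom, 9 class I and 7 class II genes were called lower and 1 and 3 higher (41.1%). Leaving out a library gave 0 to 9 and 0 to 3, again above 0 only without 21 mo replicate 1 (23.1%). For 21 mo/O304 against 18 mo, DESeq2 on the 6 compared called 1 class I gene (2.98%). The quality weights of limma voom were 9.11 for 21 mo replicate 2, 0.223 for replicate 1 and 0.132 for replicate 3, so its 21 mo level rests mainly on 1 mouse.

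With the replicate block, 0 class I and 0 class II genes were called in each comparison, and over all genes 0 against 3 without the block for 21 mo against 18 mo. Whether the numbers pair the mice is not known. Of 18 pairs of a library and another group, 10 had their best correlation with the same number. Upper-quartile scaling, edgeR on the 6 libraries, at least 10 counts in every library and limma-trend on FPKM called 0 members. Leaving out a library turned the sign of the log2 fold changes of 3 class I and 2 class II genes for 21 mo against 18 mo. The numbers were 2 and 0 for 21 mo/O304 against 21 mo, and 9 and 1 for 21 mo/O304 against 18 mo. In the last, H2-K1 ran from -0.026 to 0.23, Psmb10 from -0.13 to 0.095 and the log2 ratio differences from -0.20 to 0.27 for Psmb8 to Psmb5, from -0.035 to 0.55 for Psmb9 to Psmb6 and from -0.12 to 0.10 for Psmb10 to Psmb7. H2-Ob ran from -0.32 to 0.062 for 21 mo against 18 mo.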
